A study of Mus musculus with 11 samples.

Results

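Chromatin accessibility was examined at 41 genes of the multiciliated cell, the airway cell type that carries many motile cilia. Accessibility had been measured by ATAC-seq, in which a transposase inserts adapters into open DNA, and the data were lists of peaks, the intervals where insertions pile up. A peak belonged to a gene when the body of that gene was the nearest of any protein-coding gene and lay within 100 kb. Of 83262 accessible regions tested in the series, 194 belonged to 39 of the 41 genes. Dnah12, an axonemal dynein heavy chain, and Tekt2, a tektin, had no tested region. In the full deposited lists Dnah12 had 4 peaks over the controls and 0 over the knockout libraries, and Tekt2 had 2 and 2.

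The libraries were made from lung epithelial cells of mouse fetuses at embryonic day E17.5, of which 50000 were captured per sample with beads against EpCAM, an epithelial surface protein. The 6 libraries labelled Control were compared with 5 libraries labelled Prdm3/16KO, which lost Prdm16 and Prdm3 (gene symbol Mecom) through recombination of floxed alleles by the ShhCre allele. Shh-Cre acts in the Shh-expressing epithelium of the lung, which is not limited to multiciliated cells, and it came from the male parent. The sires were Prdm3fl/flPrdm16fl/wtShhCre+ and the dams Prdm3fl/flPrdm16fl/fl. By this cross every fetus, control or knockout, inherited floxed Prdm3 from both parents and floxed Prdm16 at least from the dam. The labels give the genotype of the controls no further and do not say that each library came from a separate animal, so p-values measure the spread between libraries. PRDM3 and PRDM16 are zinc finger proteins that act on transcription and chromatin.

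In a multiciliated cell, Gmnc and Mcidas start the programme with E2F factors, and centrioles are then made in large numbers through Deup1 and Ccno. Myb acts early in this step, and Foxj1, Rfx2 and Rfx3 drive the genes of the motile cilium. The axoneme that results holds outer and inner dynein arms, which are motors, a nexin-dynein regulatory complex, radial spokes and a central pair of microtubules. RFX factors bind the X-box, a motif of which GTTGCC is one arm, in promoters of ciliary genes.

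Bases upstream of the annotated starts of 7 of the genes are shown here because the results turn on their start regions. The first 4 belong to regulators and centriole genes whose start regions were strong in both groups. Hydin and Dynlrb2 had a weak start peak in most controls and in no knockout library. Dnai1 had one of the strongest start regions of the set, though that region was equally near to another gene, Fam219a. The sequences are from RefSeq, build GRCm38.p6 (the same assembly as mm10), run 5′ to 3′ on the strand of the gene, and end at the base before the start. Capitals mark GTTGCC or its reverse complement.
Rfx2, chr17:56831009-56831258, minus strand: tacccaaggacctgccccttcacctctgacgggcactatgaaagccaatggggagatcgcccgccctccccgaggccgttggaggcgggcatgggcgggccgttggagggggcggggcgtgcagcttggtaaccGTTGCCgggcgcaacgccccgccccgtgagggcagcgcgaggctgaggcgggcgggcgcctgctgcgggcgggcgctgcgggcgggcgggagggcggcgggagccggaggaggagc
Ccno, chr13:112987552-112987801, plus strand: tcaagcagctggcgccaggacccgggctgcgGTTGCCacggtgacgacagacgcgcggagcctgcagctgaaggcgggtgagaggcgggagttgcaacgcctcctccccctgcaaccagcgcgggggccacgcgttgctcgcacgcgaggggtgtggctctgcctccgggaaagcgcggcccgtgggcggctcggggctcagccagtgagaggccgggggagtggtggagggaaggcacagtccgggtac
Deup1, chr9:15627847-15628096, minus strand: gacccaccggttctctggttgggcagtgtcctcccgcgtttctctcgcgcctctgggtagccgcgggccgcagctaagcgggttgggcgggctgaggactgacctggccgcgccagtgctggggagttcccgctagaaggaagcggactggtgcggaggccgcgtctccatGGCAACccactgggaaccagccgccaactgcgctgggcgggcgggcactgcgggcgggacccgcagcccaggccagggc
Mcidas, chr13:112993618-112993867, plus strand: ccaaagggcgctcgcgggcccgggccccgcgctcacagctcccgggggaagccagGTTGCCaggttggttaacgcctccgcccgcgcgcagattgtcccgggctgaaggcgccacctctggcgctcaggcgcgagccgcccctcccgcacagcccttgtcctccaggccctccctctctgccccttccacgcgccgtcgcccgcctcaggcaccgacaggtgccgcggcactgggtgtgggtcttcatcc
Hydin, chr8:110266727-110266976, plus strand: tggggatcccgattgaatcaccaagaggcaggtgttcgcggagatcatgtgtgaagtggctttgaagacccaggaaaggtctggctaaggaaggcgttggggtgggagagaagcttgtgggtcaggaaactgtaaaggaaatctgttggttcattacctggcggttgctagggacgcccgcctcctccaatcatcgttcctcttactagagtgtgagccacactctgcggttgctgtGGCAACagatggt
Dynlrb2, chr8:116504765-116505014, plus strand: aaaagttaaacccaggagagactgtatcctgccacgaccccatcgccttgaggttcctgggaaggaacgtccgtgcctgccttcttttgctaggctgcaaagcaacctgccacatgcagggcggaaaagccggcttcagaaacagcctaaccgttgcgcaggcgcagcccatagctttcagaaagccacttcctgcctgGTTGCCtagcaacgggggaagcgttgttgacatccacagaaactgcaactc
Dnai1, chr4:41569544-41569793, plus strand: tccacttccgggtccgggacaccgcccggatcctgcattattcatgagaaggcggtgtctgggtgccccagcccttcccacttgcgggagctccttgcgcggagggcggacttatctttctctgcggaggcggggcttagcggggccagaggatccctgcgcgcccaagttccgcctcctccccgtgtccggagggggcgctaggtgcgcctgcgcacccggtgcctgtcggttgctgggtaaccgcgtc

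The Dnai1 sequence holds no such match and each of the other 6 holds 1. Promoter windows, from 250 bases before to 50 bases after a start, were in the reference table for 36 of the 41 genes. Foxj1, Dnah3, Cfap54, Tppp3 and Rsph1 were not in that table. GTTGCC occurred on either strand in a window of 18 of the 36 genes (50.0%), against 14.3% of 17492 protein-coding genes. By promoter, 19 of 43 windows (44.2%) held it, against 12.5% of all 32851 promoters of the same length. A fuller palindromic form of the X-box was searched as exact letters, GTTGCC and GGNAAC with NN between them. It was in 0 of the 43 windows and in 0.298% of all. Forms with other letters or spacing were not searched, so the 0 does not show that these promoters lack an X-box with both arms. The forkhead motif TGTTTAC, the type of site that FOXJ1 binds, was in 3 windows (6.98%), against 3.65% of all promoters. The search read both strands, and the fuller form contains GTTGCC, so matches of the longer form are counted in both. A match is a string of letters and not a shown binding site. A region over the start was found for 12 of the 18 genes with GTTGCC and for 14 of the 18 without it. Among all protein-coding genes the shares were 62.1% with the letters and 58.2% without.

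Peaks were ranked within each library by −log10 p, and the top 72935 were kept, as many as the shortest list held. A region took the rank of its peak as a score, from 1 (top of the list) down toward 0 (bottom), with 0 given to libraries without a peak. Regions were 400 bp windows on peak summits with a peak in at least 3 of the 11 libraries. Groups were compared with limma over all 83262 regions, and a region was called at an adjusted p under 0.05 (Benjamini-Hochberg). The deposited lists held 79525 to 112297 peaks in the controls and 72935 to 85704 in the knockout. The weakest peak used had a −log10 p of 6.59 to 35.6 in the controls and 2.00 to 14.0 in the knockout, and read depth is unknown. Of 46 Mecom regions 6 were lower and 15 higher, and of 20 Prdm16 regions 5 were lower and 4 higher. These do not check the deletion, since the labels do not say which exons were removed.

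Regions of multiciliated cell genes were called about as often as regions elsewhere. Of the 194, 40 were lower in the knockout (20.6%) and 28 were higher (14.4%), where 20.8% of all regions were lower and 17.0% higher. In either direction 35.1% were called, against 37.8% of all regions. The 194 are not all separate sites, since 22 pairs of neighbouring windows shared a peak in at least 1 library. With overlapping peaks merged there were 163 regions, 39 lower and 27 higher. The split depended on the scaling. With the lists as deposited, 219 regions of these genes were tested, of which 57 were lower and 20 higher (all regions 23664 and 11461). The share over all regions is not given for that setting. With scores centred on the mean of each library 30 of the 194 were lower and 30 higher (all regions 14294 and 16863). The median difference in rank score, knockout minus control, was −0.0272 for the gene set and −0.0208 for all regions. These calls touched 30 of the 39 genes. 10 genes had only lower calls, 8 only higher calls and 12 had both. The share over all genes is not given, and a gene with more regions can more easily have a call, so these counts are a description only. No region was called at Cfap126, Dnah1, Dnah9, Dnai1, Dnai2, Drc1, Foxj1, Rsph1 or Tppp3. Without any 1 of the 11 libraries, 33 to 40 regions were lower and 23 to 27 higher, and 49 of the 68 calls held whichever library was left out. The other 19 include 2 at Dnah2 and 1 each at Dnah3, Dnah8, Dnah10, Rsph9, Spag6, Tekt1 and Tekt4, and the rest are named with their gene. In bulk libraries, fewer multiciliated cells and less open DNA per cell cannot be told apart.

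By library, the mean score over the 194 regions was 0.371 to 0.449 in the controls (0.416 ± 0.0261, SD, n = 6). It was 0.361 to 0.404 in the knockout (0.381 ± 0.0171, n = 5), so the groups overlapped, and control replicate 5 was the lowest control. Over all 83262 regions the means were 0.429 ± 0.0177 and 0.410 ± 0.0129. These means depend on how the regions were chosen. A region needed a peak in at least 3 libraries, and there were more controls, so sites with control peaks alone entered more easily. Of the 194 regions, 152 ± 16.9 had a peak per control library and 139 ± 8.12 per knockout library. The lower means are therefore not a shown loss of accessibility. The lists as used held 157 ± 10.4 peaks of these genes per control library and 157 ± 4.42 per knockout library. That was 0.216% and 0.215% of the peaks.

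Presence of a peak gave a similar picture. 79 of the 194 regions (40.7%) had a peak in all 11 libraries, against 43.8% of all regions. A peak in every control and in no knockout library was found at 3 regions, at Dnah11, Rfx3 and Sntn, where 2.94% of all regions had this pattern. The count was 5 without control replicate 2 and 5 without control replicate 5. A peak in every knockout and in no control was found at 4 regions, at Deup1, Dnah8, Myb and Dynlrb2, against 3.89% of all regions. At 23 regions every knockout score was below every control score, and at 15 every knockout score was above, against 12.1% and 10.9% of all regions. Fisher's exact test of peak presence, among the 61 regions where it could reach the threshold, called 11 with more control peaks and 8 with more knockout peaks, against 23.9% and 23.3% of 24732 regions. The plot of differences by role shows calls in both directions in every role.

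**Figure D1:**
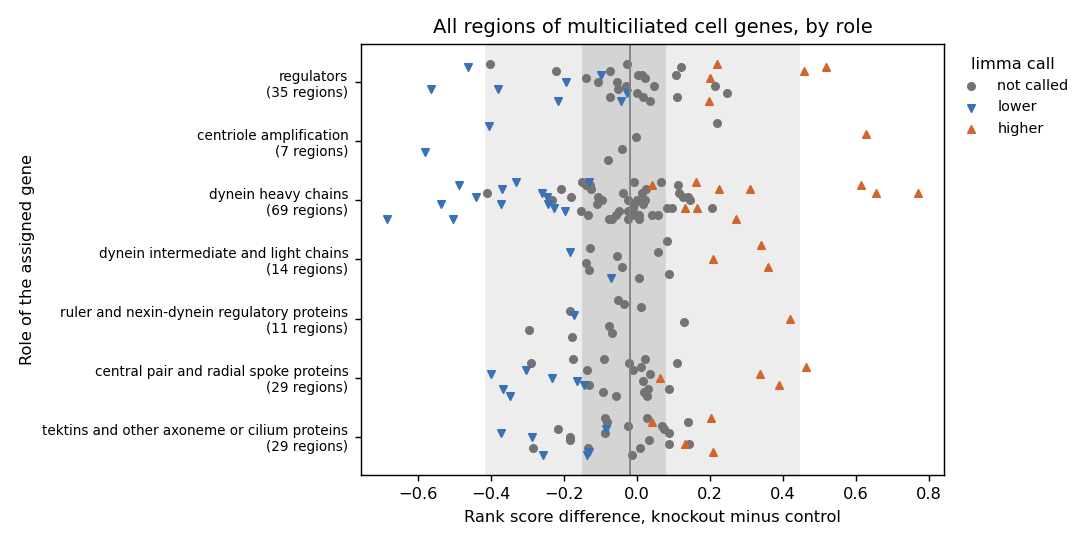
Each point is 1 of the 194 regions, placed by its rank score difference (knockout minus control, x axis) and the role of its gene (y axis); triangles are regions called by limma. The dark and light bands hold the 25th to 75th and 5th to 95th percentiles of all regions and the line is their median, −0.0208. Regulators had 8 lower and 5 higher calls of 35 regions (22.9% and 14.3%, all regions 20.8% and 17.0%).

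The regulators were accessible in both groups, and of their strongest regions those of Myb and Mcidas were called. Gmnc (GEMC1) is the earliest of them. Its strongest region (chromosome 16, 26967950 to 26968349, over an annotated start inside the gene) scored 0.621 to 0.796 in the controls, median 0.704. The knockout libraries scored 0.711, 0.769, 0.787, 0.752 and 0.790, within the control range, and the adjusted p was 0.257. The 1 call at Gmnc was weak and distal, 51584 bp from the gene body at 27043259. No control had a peak there, and knockout replicates 1 to 5 scored 0.311, 0.156, 0, 0.143 and 0.376 (mean difference 0.197 ± 0.0602, SE, adjusted p = 0.0194). The call was lost with lists as deposited (adjusted p = 0.0985) and with −log10 q of at least 5 (adjusted p = 0.103).

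Mcidas (multicilin) lies beside Ccno on chromosome 13. Its strongest region, 183 bp past the gene at 113000577 to 113000976, scored 0.938 to 0.967 in the controls, median 0.963. The knockout scored 0.899, 0.928, 0.925, 0.962 and 0.921, mostly below the controls by a small step (−0.0292 ± 0.0107, adjusted p = 0.0462). That call was lost without control replicates 3, 4, 5 or 6 or knockout replicates 1, 2, 3 or 5, each left out alone (highest adjusted p 0.113). It was also lost with peaks ranked by fold enrichment (−0.00234, adjusted p = 0.917), centred on library means (−0.00953, adjusted p = 0.610), without limma's trend and robust options (adjusted p = 0.197) and with regions in at least 2 libraries (adjusted p = 0.0519). The region over its start was not called (0.684 ± 0.0483 and 0.632 ± 0.0526, adjusted p = 0.243). A weaker region near the start, at 112994212, was higher in the knockout (0.303 ± 0.160 against 0.521 ± 0.0755, adjusted p = 0.0382). This call was lost without control replicate 3 or knockout replicates 1, 2, 3 or 5 (highest adjusted p 0.0933), with lists as deposited (0.137, adjusted p = 0.302), cut to 36467 peaks (0.0175, adjusted p = 0.861) or with −log10 q of at least 5 (0.136, adjusted p = 0.278). With overlapping peaks merged the difference was −0.0494. A region 12653 bp away, at 113013047, had a peak in 5 of 6 controls and in no knockout library (−0.195 ± 0.0617, adjusted p = 0.0234; 0.0518 centred on library means).

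Foxj1, the forkhead factor at the head of the motile cilium programme, had 5 regions on chromosome 11 and none was called. The strongest, at 116335256 to 116335655 at 1 end of the gene, scored 0.632 to 0.846 in the controls, median 0.701. The knockout scored 0.704, 0.821, 0.693, 0.776 and 0.778, again within the control range (0.720 ± 0.0820 against 0.754 ± 0.0543, adjusted p = 0.524). Its 4 other regions had control means of 0.157 or less. The lack of a call does not show equal accessibility, since the standard error of the difference was 0.0391.

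Rfx2 had one of the strongest start regions of the set. At 56830993 to 56831392 on chromosome 17, over the start whose upstream bases are printed above, controls scored 0.968 to 0.985, median 0.979. The knockout scored 0.994, 0.980, 0.986, 0.977 and 0.970 (adjusted p = 0.748). Inside the gene, the region at 56810255 was higher in every knockout library, at 0.689, 0.644, 0.713, 0.743 and 0.519. Controls there scored 0 to 0.335, median 0.233, so the groups did not overlap (0.456 ± 0.0682, adjusted p = 1.21e-04). A second internal region, at 56819829, was slightly lower (0.965 ± 0.0182 against 0.921 ± 0.0265, adjusted p = 0.0122). That call was lost by fold enrichment (−0.0257, adjusted p = 0.126), centred on library means (−0.0250, adjusted p = 0.171) and without limma's trend and robust options (adjusted p = 0.0790).

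Rfx3, on chromosome 19, had the greatest called difference among the regulators. At 28004161 to 28004560 the controls scored 0.505 to 0.603, median 0.569, and none of the 5 knockout libraries had a peak (−0.564 ± 0.0465, adjusted p = 5.76e-07). At 28015543, 874 bp outside the gene body, controls scored 0.354 to 0.579, median 0.489, and the knockout scored 0.111, 0, 0, 0 and 0 (−0.464 ± 0.0571, adjusted p = 2.16e-05). Both regions separated the groups completely, though the call at 28015543 was lost with lists cut to 36467 peaks (−0.0518, adjusted p = 0.284). The strongest Rfx3 region, over an annotated start at 28011377, lay between them, with a mean of 0.915 ± 0.0159 in each group (adjusted p = 0.998). The window beside it, at 28010965, was called higher (0.164 ± 0.0917 against 0.364 ± 0.0376, adjusted p = 0.0139). The difference was −0.323 when peaks were ranked by fold enrichment and −4.98e-05 with overlapping peaks merged, and the call was lost with lists as deposited (0.0769, adjusted p = 0.335) and with −log10 q of at least 5 (0.0870, adjusted p = 0.312).

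The strongest region of Myb fell. At 21128222 to 21128621 on chromosome 10, inside the gene, controls scored 0.881 to 0.954, median 0.934, and the knockout scored 0.728, 0.744, 0.674, 0.622 and 0.777. Every knockout library was below every control (−0.217 ± 0.0247, adjusted p = 1.08e-05). The region at 21158931 fell as well (−0.380 ± 0.0994, adjusted p = 0.0103), with knockout scores of 0.607, 0.513, 0.691, 0.549 and 0 against 0.825 to 0.866 in the controls. A region 14149 bp outside the gene, at 21175133, had no control peak and scored 0.294, 0.678, 0.544, 0.538 and 0.524 in the knockout (adjusted p = 2.30e-05; lost with lists cut to 36467 peaks, 0.114, adjusted p = 0.0892). The other lower call, at 21144865, was small (−0.0999 ± 0.0371, adjusted p = 0.0484) and was lost without any 1 of control replicates 1, 2, 4 and 5 or any 1 of the 5 knockout libraries (highest adjusted p 0.103), and centred on library means (adjusted p = 0.114) or with regions in at least 2 libraries (adjusted p = 0.0520). Myb also acts in blood cell progenitors. Immune marker genes had a gene-end region in all 11 libraries at 1 of 7 genes, and their summed scores were 3.75 to 5.37 in the controls and 3.91 to 5.28 in the knockout.

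**Figure D2:**
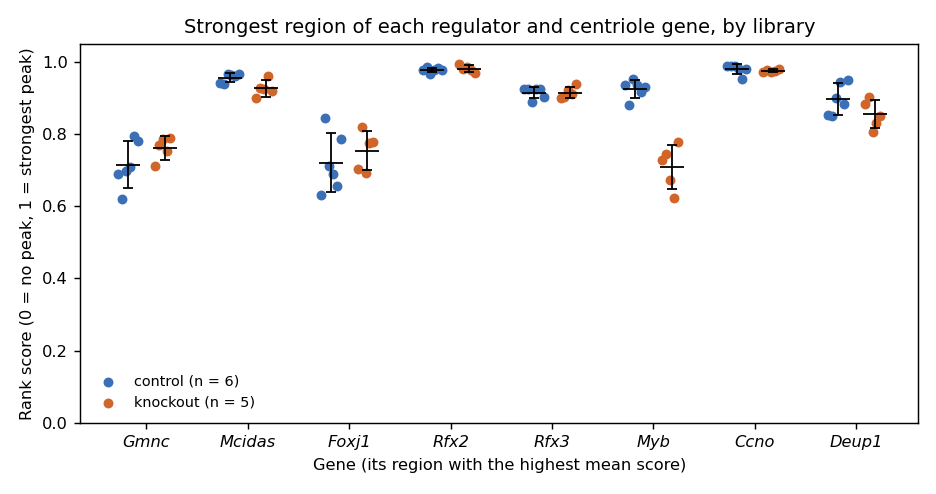
Rank score (y axis, 1 is the strongest peak and 0 is no peak) of the strongest region of each regulator and centriole gene (x axis), 1 point per library, with bars for mean and SD of 6 controls and 5 knockout libraries. Only Myb shows groups that do not overlap, 0.926 ± 0.0248 against 0.709 ± 0.0612; the small step at Mcidas was also called.

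The centriole genes had strong start regions in both groups. Ccno, which encodes a cyclin-like protein needed for centriole amplification, had its strongest region over its start at 112987533 to 112987932 on chromosome 13. Controls scored 0.952 to 0.989, median 0.985, and the knockout scored 0.973, 0.979, 0.973, 0.975 and 0.980 (adjusted p = 0.713). The adjoining window at 112987958 was called lower (−0.581 ± 0.205, adjusted p = 0.0494), with knockout scores of 0.973, 0, 0.973, 0 and 0.0467. In 8 libraries a single wide peak covered both windows, so the windows are not independent. The call was lost without any 1 of the 6 controls or knockout replicates 2, 4 or 5 (highest adjusted p 0.108). With overlapping peaks merged the difference was −0.00382 (adjusted p = 0.694), with −log10 q of at least 5 it was −0.115 (adjusted p = 0.782), and with lists as deposited −0.353 (adjusted p = 0.141). The call was also lost ranked by fold enrichment, centred on library means or with regions in at least 2 libraries (adjusted p 0.0535 to 0.0588). Another Ccno region, at 112989496, scored 0.438 to 0.676 in the controls, median 0.526, and 0.368, 0.121, 0.169, 0 and 0 in the knockout. It was called lower with no overlap of the groups (−0.406 ± 0.0747, adjusted p = 6.94e-04). The call was lost with peaks ranked by fold enrichment (−0.0512, adjusted p = 0.374) and with lists cut to 36467 peaks (−0.115, adjusted p = 0.125).

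Deup1, which builds the deuterosomes on which new centrioles form, had its strongest region over a start at 15627729 to 15628128 on chromosome 9. Controls scored 0.850 to 0.951, median 0.892, and the knockout scored 0.883, 0.904, 0.807, 0.831 and 0.851 (−0.0425 ± 0.0222, adjusted p = 0.150). Near its far end, at 15562398, no control had a peak and the knockout scored 0.700, 0.513, 0.657, 0.513 and 0.748 (adjusted p = 1.36e-06). This internal region was the only call at Deup1.

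By share, calls were fewest at gene starts, for these genes as for all genes. Of 28 regions over a start window of these genes, 3 were called (10.7%), against 15.3% of the 10905 start regions of all protein-coding genes. The calls were a fall at Cfap43, a fall at Hydin and the rise at the Rfx3 window named above. At gene ends (a distance of up to 1 kb from the first or last base of the gene) 9 of 44 were called (20.5%, all genes 16.5%). Inside genes 43 of 103 were called (41.7%, all genes 44.3%), and outside genes 16 of 47 (34.0%, all genes 42.6%). A region over the start was present for 26 of the 36 genes in the promoter table (72.2%, against 58.7% of all), and in all 11 libraries for 21 (58.3%, against 51.2%). Dnah11 and Dnai1 were strongest, at 0.994 ± 0.00175 and 0.988 ± 0.00336 in the controls and 0.988 ± 0.00213 and 0.992 ± 0.00142 in the knockout.

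At the weak end, 3 start regions had a peak in some controls and in no knockout library. This set was singled out after its values were seen. At Hydin, a central pair protein, the region at 110266745 to 110267144 on chromosome 8 covers the GGCAAC letters printed above. Controls scored 0.324, 0, 0.524, 0.323, 0.361 and 0.668, and all 5 knockout libraries scored 0 (−0.367 ± 0.0944, adjusted p = 0.00744). At Dynlrb2, a dynein light chain, controls scored 0.253, 0.109, 0, 0.257, 0.223 and 0, and the knockout 0 in each (adjusted p = 0.0617). At Cfap52, an axonemal microtubule protein, controls scored 0, 0.196, 0, 0.0701, 0.161 and 0.107, again with 0 in each knockout library (adjusted p = 0.110). Hydin alone passed the test among them, and in each of the 3 at least 1 control had no peak either. The share was 3 of 28 (10.7%), against 1.27% of start regions of all genes with no knockout peak. Including all gene ends the count was 6 of 44 (13.6%, all genes 2.69%), with Dnah5 in 5 controls, Deup1 in 3 and Myb in 3. A region needed a peak in at least 3 libraries, so all of these were tested through their control peaks alone. Both shares describe regions picked by the same values and are not a test of a loss at these genes. The reverse, a start region with no control peak, was at 0 of 28 (all genes 0.486%), and a gene-end region with no control peak was at 1 of 44, at Dynlrb2 (all genes 1.06%). In the full deposited lists these 6 regions also had no knockout peak, so the cut of the lists did not remove one.

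**Figure D3:**
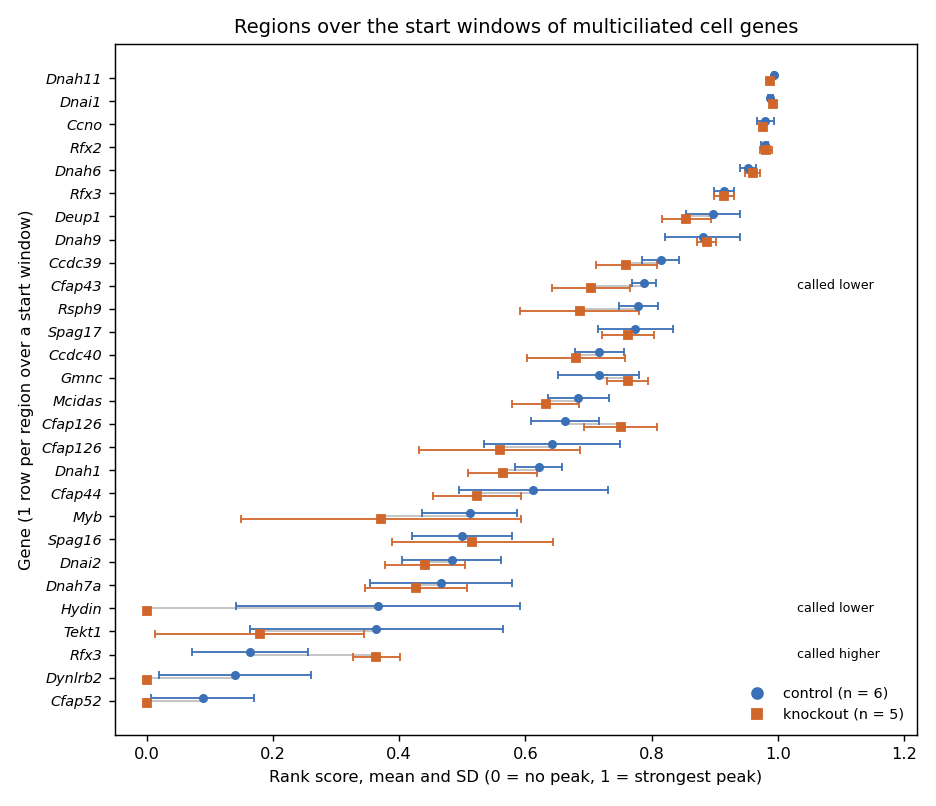
Mean and SD of the rank score (x axis) in 6 controls and 5 knockout libraries for the 28 regions over start windows (y axis, gene names; genes with more than 1 such region have a row for each). Regions run from Dnah11 at 0.994 in the controls to Cfap52 at 0.0890, and the 3 calls are marked.

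The dynein heavy chains, the motor subunits of the arms, held 69 of the 194 regions. Of these 14 were lower (20.3%, all regions 20.8%) and 10 higher (14.5%, all regions 17.0%). Their mean score by library was 0.434 ± 0.0343 in the controls and 0.390 ± 0.0338 in the knockout, with overlapping ranges. The greatest fall of all 194 was in Dnah7a, an inner arm chain, at 53646377 to 53646776 on chromosome 1. Controls scored 0.723 to 0.862, median 0.766, and the knockout scored 0.193, 0, 0.131, 0.160 and 0 (−0.684 ± 0.0517, adjusted p = 2.70e-07). In the mouse Dnah7a has the near-identical relatives Dnah7b and Dnah7c elsewhere on chromosome 1. Whether reads of Dnah7a were placed at Dnah7b or Dnah7c, or the reverse, was not tested. Those 2 genes had calls in both directions, 2 lower and 1 higher of 5 regions at Dnah7b and 3 lower and 1 higher of 6 at Dnah7c. The greatest of each direction were −0.785 (adjusted p = 6.16e-08) and 0.157 (adjusted p = 0.0244) at Dnah7b, and −0.637 (adjusted p = 8.35e-07) and 0.337 (adjusted p = 0.00370) at Dnah7c.

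Dnah11, an outer arm chain, had the most regions, 16, with 6 lower, 2 higher and 8 not called. Its greatest change was a gain, and the greatest of all the genes. At 118078446 to 118078845 on chromosome 12, controls scored 0.336, 0, 0, 0.0957, 0.188 and 0. The knockout scored 0.852, 0.852, 0.858, 0.926 and 0.869, far above every control (0.768 ± 0.0643, adjusted p = 6.59e-07). About 30 kb on toward the gene's start-distal end, the region at 118048774 fell. It scored 0.606 to 0.721 in the controls, median 0.676, and 0.0945, 0, 0.340, 0.410 and 0 in the knockout (−0.504 ± 0.0763, adjusted p = 1.36e-04). At 117941944 the controls scored 0.268 to 0.750, median 0.473, and no knockout library had a peak (−0.488 ± 0.0832, adjusted p = 3.71e-04; lost with lists cut to 36467 peaks, −0.151, adjusted p = 0.123). The region at 117993455 between them was near equal, 0.920 in the controls and 0.919 in the knockout. The plot along Dnah11 shows lower and higher regions side by side in 1 gene body. Of its smaller falls, the call at 118041217 (adjusted p = 0.0257) was lost without knockout replicates 1, 3 or 4, and that at 118177343 (adjusted p = 0.0216) without knockout replicate 1 (0.0529 and 0.0550 at most).

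**Figure D4:**
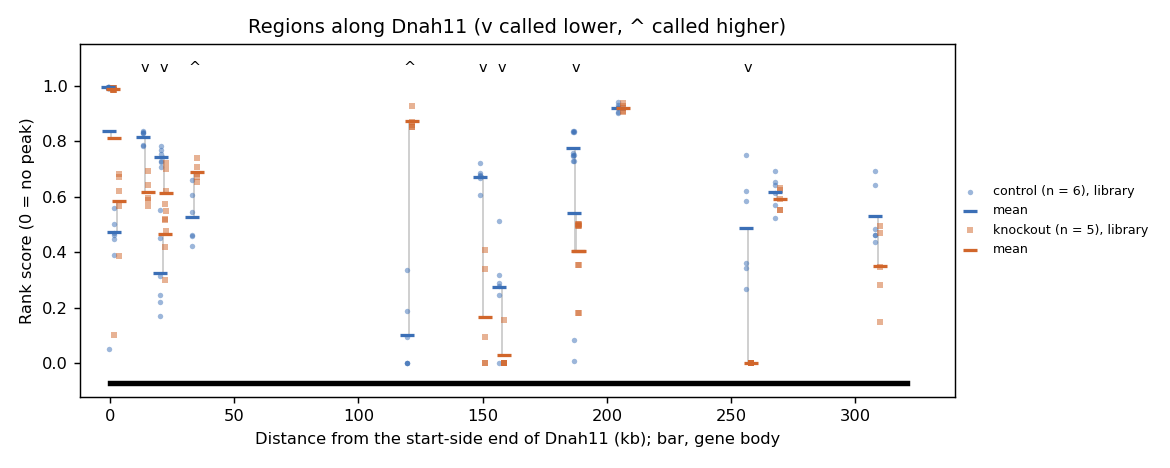
Rank score (y axis) of the 16 regions of Dnah11 against distance from the end of the gene that holds its start (x axis, kb), with 1 point per library and a dash for the mean of 6 controls or 5 knockout libraries; arrowheads mark called regions and the black bar is the gene. The region over the start scores 0.994 in the controls and 0.988 in the knockout, the window beside it has 1 low library in each group, and internal regions go down (6) and up (2).

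Dnah5, the other main outer arm chain, had calls outside and inside its gene body on chromosome 15. At 28109318, 45137 bp from the gene, controls scored 0.0779 to 0.466, median 0.196, and the knockout 0.801, 0.907, 0.874, 0.907 and 0.899 (0.655 ± 0.0660, adjusted p = 3.58e-06). At 28141350, 13105 bp from the gene, controls scored 0.532 to 0.730, median 0.656, and the knockout 0.150, 0.244, 0.166, 0.443 and 0 (−0.441 ± 0.0730, adjusted p = 2.90e-04). These 2 regions lie on the same side of the gene and moved in opposite directions, with no overlap of groups at either. In all Dnah5 had 1 lower and 3 higher calls of 14 regions. Inside the gene, the strong region at 28158896 rose by a small step, from 0.935 ± 0.0168 to 0.977 ± 0.00736 (0.0414 ± 0.00873, adjusted p = 0.00198). The remaining higher call, outside the gene at 28097406, had peaks in 3 knockout libraries and in no control (0.271 ± 0.0948, adjusted p = 0.0375). It was lost without any 1 control (highest adjusted p 0.0606), and without knockout replicates 1, 2 or 4 it fell under the limit of 3 libraries.

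Among the other heavy chains, a region inside Dnah3, an inner arm chain, fell at 120080174 on chromosome 7. Controls scored 0.564 to 0.822, median 0.731, and the knockout 0.204, 0.382, 0, 0 and 0.285 (−0.538 ± 0.0759, adjusted p = 7.30e-05). Dnah8, a heavy chain best known from the sperm tail, gained a region at 30687537 on chromosome 17, which no control had. The knockout scored 0.466, 0.564, 0.628, 0.762 and 0.643 there (adjusted p = 1.69e-06). Dnah2 had 2 lower and 1 higher calls of 9 regions, Dnah6 1 of each of 7, Dnah7a 2 lower of 7 and Dnah10 1 lower of 2. Dnah9, an outer arm chain, had 5 regions and Dnah1 2, with no call at either.

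Of the intermediate and light chains, Dnai1 and Dnai2 had 2 regions each and no call. Dynlrb2 had 10 regions, 2 lower and 3 higher. The 2 lower ones were strong internal windows next to each other, at 116508787 (0.936 ± 0.0151 against 0.864 ± 0.0328, adjusted p = 0.00130) and 116509221 (0.883 ± 0.0193 against 0.698 ± 0.0559, adjusted p = 2.87e-05). The 3 higher ones had no control peak, and the nearest was at the far end of the gene, at 116515440, with knockout scores of 0.245, 0.408, 0.219, 0.342 and 0.579 (adjusted p = 5.94e-04). The other 2 were 88120 and 91701 bp away, and Dynlrb2 also held the regions closest to the distance limit, at 94626 and 97500 bp, with control means of 0.131 and 0.0564 and no knockout peak. Just beyond the limit, a region 112713 bp from Spag17 had means of 0 and 0.190, and one 139285 bp from Rfx3 had means of 0.292 and 0.133.

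The ruler proteins Ccdc39 and Ccdc40, which set the repeat length of the axoneme, had 1 call each, and Drc1, of the nexin-dynein complex, had none of 2 regions. Inside Ccdc40, at 119238342 on chromosome 11, controls scored 0, 0.247, 0, 0, 0 and 0.176 and the knockout 0.578, 0.445, 0.358, 0.568 and 0.497 (0.419 ± 0.0677, adjusted p = 2.39e-04; by presence alone, Fisher's exact test, adjusted p = 0.103). A Ccdc39 region 69134 bp from the gene fell from 0.832 ± 0.0519 to 0.660 ± 0.0585 (adjusted p = 6.33e-04). These were 1 of 5 regions of Ccdc40 and 1 of 4 of Ccdc39.

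Central pair and radial spoke genes had 29 regions, 7 lower (24.1%, all regions 20.8%) and 4 higher (13.8%, all regions 17.0%). Cfap54, a central pair protein, had 2 lower and 3 higher of 9. At 93095234 on chromosome 10, 11747 bp from the gene, it gained a region that scored 0 to 0.315 in the controls, median 0.192, and 0.703, 0.493, 0.716, 0.561 and 0.660 in the knockout (0.462 ± 0.0741, adjusted p = 2.22e-04). A neighbour at 93098396 fell from 0.852 ± 0.0412 to 0.687 ± 0.0435 (adjusted p = 1.43e-04). One rise, at 93081449, was small (0.0626 ± 0.0232, adjusted p = 0.0478) and was lost without any 1 of 8 libraries (control replicates 1 to 4 and knockout replicates 1, 2, 3 and 5; highest adjusted p 0.0959). Spag16, a central pair protein, had 2 lower calls of 4 regions inside its gene body, from 0.388 ± 0.0658 to 0.0400 ± 0.0895 and from 0.305 ± 0.175 to no peak. Spag17 had 1 higher of 5, Spag6 1 lower of 5, Rsph9, a radial spoke protein, 1 lower of 2, and Rsph1 none of 2.

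Tektins and other axoneme or cilium proteins had 29 regions, 6 lower (20.7%, all regions 20.8%) and 4 higher (13.8%, all regions 17.0%). Cfap43 and Cfap44 are axonemal proteins that tether an inner dynein arm. Cfap43 had 3 lower of 5. The clearest, at 47755561, went from 0.831 ± 0.0341 to 0.699 ± 0.0732 (adjusted p = 0.00391). The one at 47828734 (−0.138 ± 0.0509, adjusted p = 0.0468) was lost without any 1 of 9 libraries, all but control replicate 1 and knockout replicate 3 (highest adjusted p 0.0936), and that at the start (−0.0841 ± 0.0269, adjusted p = 0.0246) without knockout replicate 5 (0.0522). Cfap44 had 2 lower and 1 higher of 5, the greatest at 44395158 near its start, from 0.530 ± 0.0758 to 0.159 ± 0.168 (adjusted p = 0.00154). Sntn encodes sentan, a protein of the ciliary tip. Its single region lay 7679 bp from the gene, with a peak in all 6 controls and in no knockout library (0.257 ± 0.118 against 0, adjusted p = 0.00419). The full deposited lists had 15 Sntn peaks over the 6 controls and 0 over the 5 knockout libraries. Tekt1, Tekt4 and Cfap52 had 1 higher call each. Cfap126 had 8 regions, the most of any gene with no call. The single region of Tppp3, a tubulin-binding protein, was strong in both groups, at 0.941 in the controls and 0.916 in the knockout (adjusted p = 0.223).

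**Figure D5:**
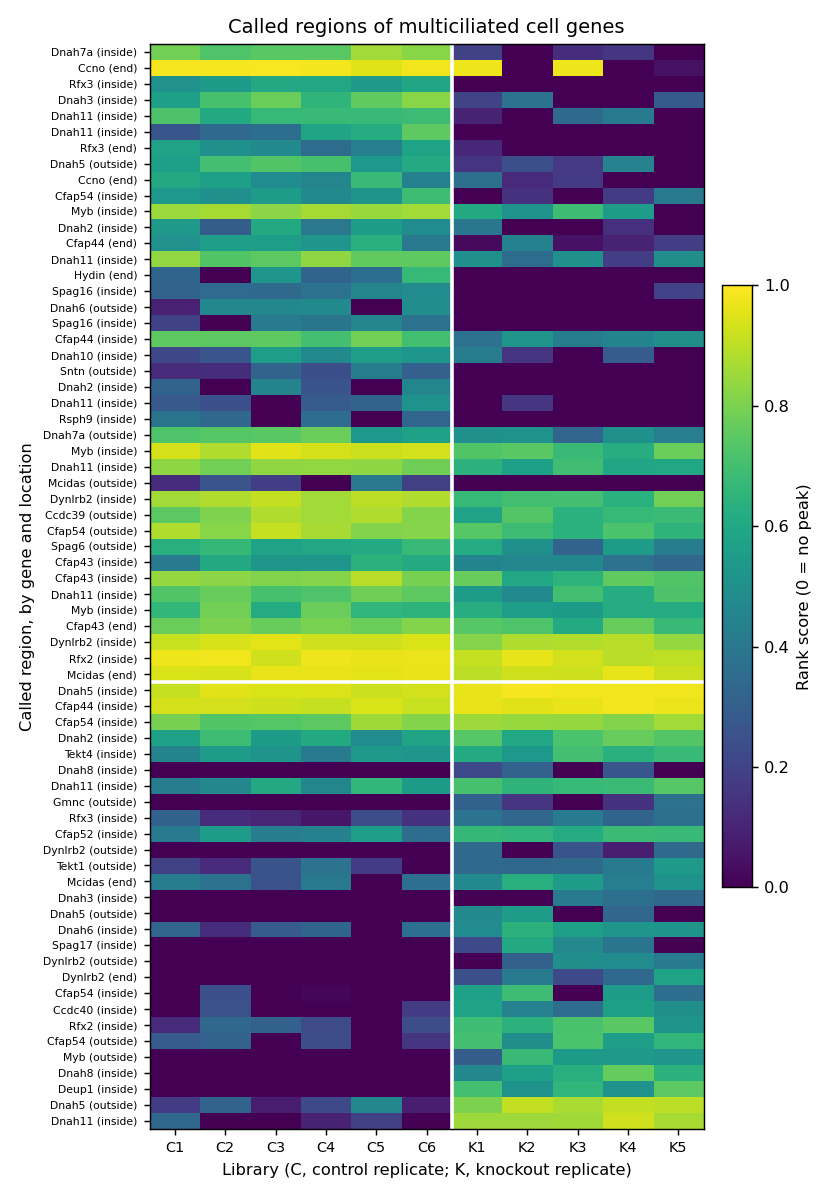
Rank scores (colour, 0 is no peak and 1 the strongest) of the 68 called regions (rows, by gene and location) in each of the 11 libraries (columns, C for control and K for knockout replicates). The upper 40 rows are lower in the knockout and the lower 28 higher; Dnah7a heads the falls at −0.684 and Dnah11 ends the rises at 0.768.

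Other genes of the motile cilium moved at similar rates. Of a list of 82 further ciliary genes, 78 were in the gene table and 73 had 288 regions, of which 51 were lower (17.7%) and 38 higher (13.2%), against 20.8% and 17.0% of all regions. 18 of the 73 genes had only lower calls, 11 only higher, 14 both and 30 none, again without a share over all genes. The greatest rise was in Cfap299, at 98513911 on chromosome 5, from 0.00402 ± 0.00983 to 0.860 ± 0.0450 (adjusted p = 1.64e-08). The greatest fall was 5129 bp from Dnah7b, from 0.819 ± 0.0551 to 0.0347 ± 0.0775 (adjusted p = 6.16e-08).

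Markers of other cells give the setting of these values. All 8 general epithelial marker genes had a gene-end region in all 11 libraries, as did 21 of the 41 multiciliated cell genes. The same held for 1 of 10 secretory, 2 of 6 basal, 2 of 7 neuroendocrine, 2 of 7 endothelial, 2 of 8 mesenchymal and 1 of 7 immune marker genes. Of the basal list, the keratins Krt5, Krt14 and Krt15 had no region, while Ngfr, Dapl1 and Aqp3 each had a gene-end region. Other markers without a region were Bpifa1, Hp and Scgb3a1 of the secretory list and Cd3e and Cd79a of the immune list. Summed scores of the mesenchymal list were 7.81 to 8.79 in the controls and 6.05 to 7.64 in the knockout, without overlap. Endothelial sums were 7.11 to 8.51 and 6.78 to 8.38, and those of the multiciliated cell genes 72.0 to 87.0 and 70.0 to 78.5. By calls, 48.0% of 25 endothelial regions were called (7 lower, 5 higher), 40.9% of 22 secretory (5 and 4), 29.3% of 58 general epithelial (8 and 9) and 26.3% of 19 basal (3 and 2). The share was 21.4% of 28 mesenchymal (4 and 2) and 21.4% of 14 immune regions (3 and 0), against 37.8% of all regions. Of 15 neuroendocrine regions 0 were lower and 3 higher. Whether a shift in the cells captured had a part in the differences at multiciliated cell genes was not tested.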

How the data were processed

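ATAC-seq peak lists of 11 libraries, 6 control and 5 knockout, were read as the authors deposited them, 1 list per library. The submitters' processing notes name mm10, MACS2, DiffBind 3 and deepTools, with no settings. The files carry no header and follow the narrow peak layout. The deposited columns used were, per peak, −log10 q, −log10 p, the fold enrichment over background (a ratio) and the position, and the deposited integer score was not used. Lists were cut to 72935 peaks and ranked by −log10 p, which makes the lists equally long but does not remove differences in depth, and can hide a change shared by all regions. Windows of 400 bp on summits, overlapped by at least 100 bp of a peak and present in at least 3 libraries, were compared with limma 3.58.1 (R 4.3.3, trend and robust options, genotype as the only term). The fit was first tested on simulated scores, with shifts placed only at regions of middling mean score. That test did not cover differences where a whole group had no peak or where scores were near the top. Genes and promoters came from RefSeq tables of GRCm38.p6, with 21887 protein-coding genes on chromosomes 1 to 19, X and Y. Dnai1 and Dnai2 were matched as Dnaic1 and Dnaic2. The 2 regions tied with another gene were kept, the start regions of Dnai1 (tied with Fam219a) and Ccdc40 (tied with Tbc1d16).

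Named regions were, for each regulator and centriole gene, the strongest and every called region, then the 8 greatest called falls and the 8 greatest called rises of all the genes, genes with at least 3 calls and genes with no region. Members, roles and marker lists were chosen with earlier results of these data known. Replicate numbers did not pair the libraries. Fisher's exact test of peak presence was an alternative, and the others are given with their effects in the closing section. Values under leave-one-out refit all regions without 1 library.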

Additional observations from a re-analysis of the deposited data

Results flagged for a closer look

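In 6 of 63 groups of scores tested, 1 library stood far from the others of its group. Chance gives about 1 in 20 for independent, normally spread values. Rank scores with 0 for no peak are not such values, so some flags are to be expected but their number is not known. At the Ccno start region, 112987533, control replicate 5 scored 0.952 and the other controls 0.980 to 0.989. The adjoining Ccno window at 112987958 carried the same 0.952, from the same peaks. At the Dnah11 gain, 118078446, knockout replicate 4 scored 0.926 and the others 0.852 to 0.869. At Myb, 21158931, knockout replicate 5 had no peak (0) and the others scored 0.513 to 0.691. At Rfx2, 56819829, control replicate 3 scored 0.929 and the others 0.965 to 0.977. At Rfx3, 28015543, knockout replicate 1 scored 0.111 and the others 0, a pattern that is always flagged, whatever the size of the single score. Control replicate 5 and knockout replicate 5 also had the shortest lists of their groups, 79525 and 72935 peaks.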

How the results depend on the processing

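Read depth is unknown, so a missing peak may be a weak one, and the score orders peaks within a library only. Across 32 named regions and their alternatives, 655 of 739 values kept direction and side of the threshold, 66 lost the call and 18 changed sign. With lists as deposited, the genome had 23664 lower and 11461 higher regions in place of 17350 and 14134, the mean score difference over the gene set was −0.0680 in place of −0.0352, other cilium genes had 78 lower regions, other lineage markers 46 lower, and 58 of 68 calls at the genes were kept. With scores centred on the mean of each library the genome gave 14294 lower and 16863 higher, and 58 calls were kept. With −log10 q of at least 5 the mean score difference was −0.0655. Lists cut to 36467 peaks gave 8978 lower and 8251 higher in the genome. At the genes 26 were lower and 15 higher of 93 regions tested (3 called at gene ends, 38 elsewhere), and 5 regions were in every control and no knockout. There were 22 higher at other cilium genes, and 7 lower and 15 higher at lineage markers. Of the main calls 36 were kept and 21 had no matching region. Fisher's exact test of presence gave 5911 and 5765 in the genome and 11 and 8 at the genes. The cause of these shifts was not tested. Leaving out 1 library gave 3 to 5 regions in every control and no knockout (main value 3; 5 without control replicate 2 or 5), 54 to 59 of the 68 calls kept, and −0.0445 to −0.0290 for the mean score difference. The replicate block, over replicates 1 to 5, gave 30 lower and 20 higher of 189 regions tested at the genes, with 5 called at gene ends in place of 9. In the genome it gave 15181 and 12459, and 48 of 68 calls were kept. Named calls lost with the block were Gmnc 27043259 (adjusted p = 0.0509), Ccno 112987958 (adjusted p = 0.0949) and Myb 21144865 (adjusted p = 0.0682). At Mcidas it lost the calls at 112994212 (adjusted p = 0.0597), 113000577 (adjusted p = 0.0608) and 113013047 (adjusted p = 0.0521). Same-numbered libraries had correlations of −0.023 to 0.139 in their deviations, so the numbers were not taken as pairs. Signs changed at the Ccno start region 112987533 (0.0557 ranked by fold, 0.0159 centred), Foxj1 116335256 (−2.58e-04 as deposited), Mcidas 112994212 (−0.0494 merged), Rfx2 56830993 (−3.11e-04 as deposited, −2.63e-04 by q, −2.55e-04 to 0.00560 leaving out 1 library, below 0 without knockout replicate 1), Rfx3 28010965 (−0.323 by fold, −4.98e-05 merged) and Rfx3 28011377 (0.0671 by fold, 0.0197 centred, −0.00596 to 0.00375 leaving out 1 library).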
